A study of Homo sapiens with 12 samples.

Results

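The AP-2 transcription factor genes and the genes of their cofactors were described in MDA-MB-453, an androgen-responsive breast cancer line with little estrogen receptor alpha. The 10 genes were taken by symbol from the count table, out of 60670 genes: the AP-2 genes TFAP2A, TFAP2B, TFAP2C and TFAP2E, the similarly named TFAP4, the coactivator genes CITED1, CITED2 and CITED4, and the corepressor genes KCTD1 and KCTD15. Treated cells received dihydrotestosterone (DHT), a strong natural androgen, at 10 nM for 6 h, and their controls received vehicle, 0.001% ethanol, for 6 h. There were 6 DHT and 6 vehicle libraries, all from 1 cell line in high-glucose DMEM with 10% serum over 72 h, and the labels describe the 6 replicates of each group as independent and from consecutive passages. All values are RNA levels in whole cultures, so fewer cells with an RNA and less of it per cell cannot be told apart.

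AP-2 proteins bind GC-rich DNA as dimers through a conserved basic helix-span-helix region, and the paralogs can pair with each other and recognise much the same sites. AP-2β, encoded by TFAP2B, is the factor named in the series title, which concerns enhancers of the hormone-sensing cells of the mammary gland. CITED proteins do not bind DNA themselves and bridge AP-2 to the acetyltransferases p300 and CBP, whereas KCTD1 and KCTD15 bind AP-2 and hold back its activity. The comparison addresses how the paralogs rank in a hormone-sensing tumour line and whether 6 h of androgen moves them or their cofactors.

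DHT libraries held 9486951 to 25678781 counts and vehicle libraries 4346465 to 16963880 counts. Both replicate 2 libraries lay apart from the other 10 on the leading axis of variation (51.1% of the variance), and each result below that rests on them is given with and without them. The androgen-induced gene FKBP5, which encodes a cochaperone of steroid receptors, rose (log2 fold change 2.09, adjusted p = 6.79e-06 in edgeR's test) and stood at 350.1 ± 63.8 CPM in DHT and 82.4 ± 15.2 CPM in vehicle libraries (SD, n = 6 each), where CPM are counts relative to the scaled library total. Of the markers of the line, the luminal factor genes FOXA1 and GATA3 fell in edgeR's test, ERBB2, KRT8, KRT18 and EPCAM were well measured and did not pass, and ESR1 averaged 0.124 CPM in DHT and 0.413 CPM in vehicle libraries. Leukocyte and endothelial markers had 0 genes with enough counts to test, and their summed levels reached at most 0.472 and 0.794 CPM in DHT and 0.854 and 1.55 CPM in vehicle libraries, with CD3E at 0 counts. Of 7 fibroblast markers 3 could be tested and none passed (3 lower at an unadjusted p under 0.05), with a summed level of 59.96 to 75.9 CPM in DHT and 76.5 to 111 CPM in vehicle libraries, most of it COL1A1. Of 8 basal markers 3 could be tested and TP63 was lowered, with a summed level of 8.09 to 10.02 CPM in DHT and 15.8 to 24.9 CPM in vehicle libraries. The part of these differences in the results below was not tested.

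The paralogs are similar in sequence but have no exact stretch as long as a read, 40 bases, in common. In the longest coding sequences of GENCODE release 29, TFAP2A and TFAP2B were 73.3% identical over 1291 aligned bases, TFAP2B and TFAP2C 71.7% over 1270 bases, and TFAP2B and TFAP2E 72.0% over 1259 bases. Despite its name, the product of TFAP4 is a basic helix-loop-helix leucine zipper protein and no member of the AP-2 family. In the same alignments TFAP4 had 65.6% identity with TFAP2B over 959 aligned bases, 65.3% with TFAP2A, 62.0% with TFAP2C and 65.4% with TFAP2E. Identity was counted over aligned bases only, gaps left out, so values at this level are reached without kinship and are no sign of it. KCTD1 and KCTD15 were 77.4% identical over 841 bases and CITED2 and CITED4 71.1% over 547 bases. None of the 10 genes shared an exact stretch of 40 bases with another of them, searched over all their GENCODE transcripts on both strands. TFAP2A shared 14.3% of its stretches of 40 bases with other genes, namely its antisense genes TFAP2A-AS1 and TFAP2A-AS2, which overlap 438 and 941 of its exon bases. These antisense genes held 180 and 274 counts over the DHT libraries and 155 and 207 over the vehicle libraries, against 17517 and 13366 for TFAP2A, and reads from the overlaps cannot be told apart if strand was not used in counting. CITED1 shared 34.3% of its stretches, most of them with an overlapping gene model on its own strand.

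TFAP2B was the highest of the 10 genes per length. With the gene length of the count table and plain library totals, it held 93.4 ± 16.3 CPM per kilobase (kb) in DHT libraries and 92.6 ± 19.2 in vehicle libraries (SD, n = 6 each). CITED2 came next with 67.4 ± 20.3 in DHT and 36.4 ± 9.60 in vehicle libraries, then TFAP2A with 25.1 ± 3.38 and 21.0 ± 3.32, and TFAP2C with 12.7 ± 1.99 and 13.8 ± 2.58 in the same order of groups. In the vehicle libraries the ranges of these 4 genes did not overlap between neighbours, while in the DHT libraries CITED2 overlapped TFAP2B through replicate 2 alone, where it was the higher. Without replicate 2 the DHT libraries held 50.5 to 73.4 CPM per kb of CITED2 and 86.1 to 109 CPM per kb of TFAP2B. KCTD15 was at 7.25 ± 1.24 CPM per kb in DHT and 6.46 ± 0.960 in vehicle libraries, and KCTD1 at 5.75 ± 0.463 and 4.15 ± 0.616. Their ranges overlapped in both groups, and without replicate 2 in the vehicle libraries but not in the DHT libraries. Compared within each library, KCTD15 was above KCTD1 in 5 of 6 DHT and 6 of 6 vehicle libraries. TFAP4 stood below both at 3.46 ± 0.436 in DHT and 2.04 ± 0.431 in vehicle libraries. TFAP2E, CITED1 and CITED4 formed a low group at 0.190, 0.149 and 0.0209 CPM per kb in DHT and 0.167, 0.116 and 0.00819 in vehicle libraries, and neighbours among them overlapped.

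**Figure D1:**
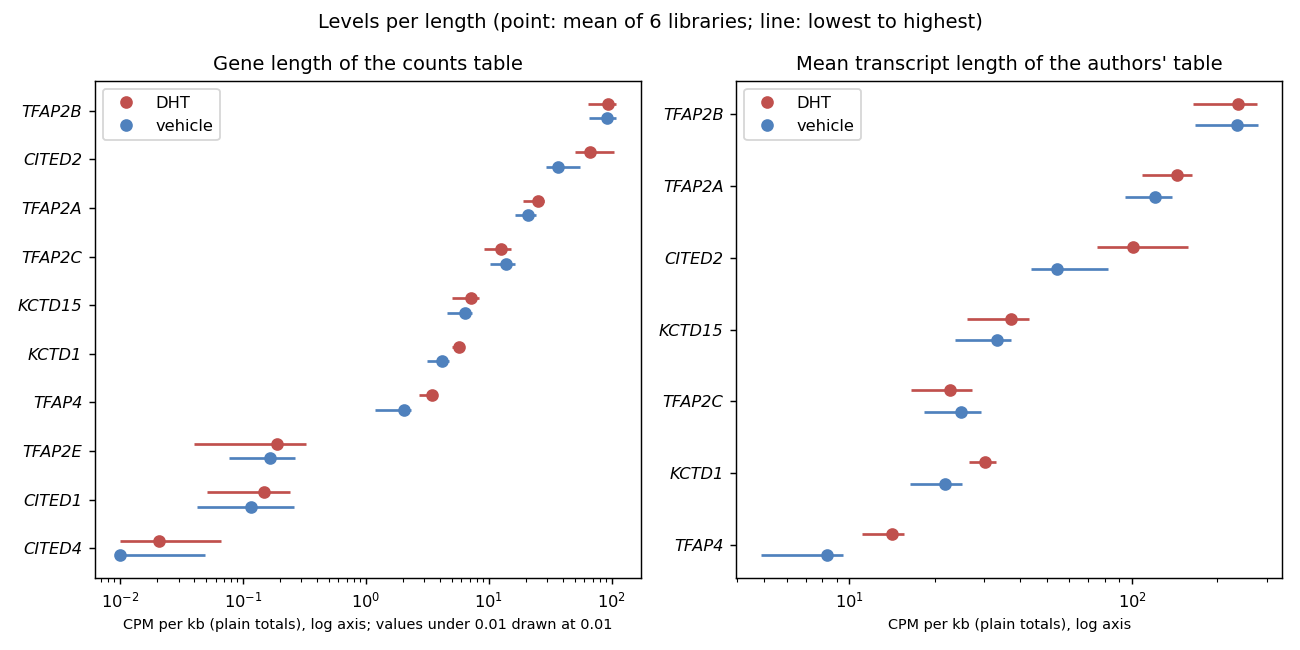
Levels of the 10 genes in CPM per kb on a log axis, with the gene length of the count table (left) and, for the 7 genes that the authors' table lists, its mean transcript length (right); points are means of 6 libraries and lines run from the lowest to the highest. TFAP2B leads in both panels, while CITED2 and TFAP2A change places between them.

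The length in use changes the order below TFAP2B. The count table gives TFAP2A 8218 bases over all its exons and TFAP2B 6155, and the authors' deposited table gives mean transcript lengths of 1431 bases for TFAP2A and 2421 for TFAP2B. With these shorter lengths TFAP2B again led, at 237 ± 41.4 CPM per kb in DHT and 235 ± 48.7 in vehicle libraries. TFAP2A was then second, at 144 ± 19.4 in DHT and 121 ± 19.0 in vehicle libraries, above CITED2 at 101 ± 30.3 and 54.4 ± 14.4, whose range overlapped that of TFAP2A in the DHT libraries, though not without replicate 2. TFAP2C moved below KCTD15, and its range overlapped those of KCTD15 and KCTD1 in both groups. Without replicate 2 its range still overlapped that of KCTD15 in the vehicle libraries, but not in the DHT libraries. Compared within each library, KCTD15 was above TFAP2C in 6 of 6 vehicle libraries. KCTD1 was above TFAP2C in 6 of 6 DHT libraries, while TFAP2C was above KCTD1 in 5 of 6 vehicle libraries.

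TFAP2B (ENSG00000008196, chromosome 6, 50818723 to 50847619 on GRCh38, plus strand) did not differ between the groups beyond their spread. Its level ran from 466 CPM through a median of 570.1 to 624 CPM in DHT libraries, and from 457 through 600.4 to 626 CPM in vehicle libraries, on library totals scaled by the trimmed mean of M-values (TMM). The lowest DHT library was replicate 2 and the lowest vehicle library replicate 5, and the groups overlapped almost fully. The log2 fold change, DHT over vehicle, was -0.04 (95% interval -0.30 to 0.22; adjusted p = 0.961 by edgeR's quasi-likelihood test with Benjamini-Hochberg adjustment over 16355 genes). As a fold, the interval ran from 0.812 to 1.17, so a change larger than this in either direction lay outside it. The sign of this small difference turned with library totals as the only scaling and without DHT replicate 2.

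TFAP2A (ENSG00000137203, chromosome 6, 10393186 to 10419659, minus strand) encodes AP-2α, a factor of neural crest, face and skin development that is also made in luminal breast cells. It ran from 182 CPM through a median of 199 to 219.6 CPM in DHT libraries, and from 161 through 171 to 190.2 CPM in vehicle libraries. DHT replicate 2, the lowest of its group, was the 1 DHT library within the vehicle range, and the log2 fold change of 0.20 (95% interval 0.00 to 0.40) had an unadjusted p of 0.0499 and an adjusted p of 0.417 in edgeR's test. TFAP2C (ENSG00000087510, chromosome 20, 56629306 to 56639283, plus strand) encodes AP-2γ, a factor of trophoblast and of luminal breast cells. Its levels were 32.4, 37.7 and 42.7 CPM (lowest, median and highest) in DHT libraries and 37.8, 40.7 and 47.9 CPM in vehicle libraries, with 3 of 6 DHT libraries below the lowest vehicle library. Its log2 fold change was -0.18 (95% interval -0.40 to 0.05, adjusted p = 0.604 in edgeR's test). TFAP2E, the gene of AP-2ε, had 35 counts over all DHT and 31 over all vehicle libraries, from 0.0876 to 0.695 CPM and from 0.214 to 0.590 CPM, and was too low for the main test (log2 fold change 0.03, adjusted p = 0.979 in edgeR's test without the low-count filter). In the authors' deposited table the log2 fold changes are -0.01 for TFAP2B, 0.21 for TFAP2A and -0.20 for TFAP2C, each with an adjusted p of 1.00.

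Per length, TFAP2B made up most of the summed RNA of the 4 AP-2 genes in every library. The fifth gene of the family, TFAP2D, had 0 counts in the DHT and 0 in the vehicle libraries and was not summed. The TFAP2B share of the sum of the 4 AP-2 genes was 71.0% ± 1.19 in DHT and 72.4% ± 1.75 in vehicle libraries (SD, n = 6 each). TFAP2A held 19.2% ± 0.730 in DHT and 16.6% ± 1.16 in vehicle libraries, TFAP2C 9.69% ± 0.648 and 10.9% ± 0.810, and TFAP2E 0.138% ± 0.0663 and 0.130% ± 0.0510. With the authors' transcript lengths, where TFAP2E has no entry, the TFAP2B share was lower, at 58.6% ± 1.34 in DHT and 61.6% ± 2.11 in vehicle libraries. Of 5 ratios between pairs of the genes, computed within each library and not tested, 1 had groups that did not overlap. That ratio, TFAP2A to TFAP2C, ran from 1.85 to 2.11 in DHT and from 1.38 to 1.69 in vehicle libraries. How often ratios of other gene pairs separate the groups was not counted, so this separation has no background to be read against. The ratio of TFAP2B to TFAP2A was 3.71 ± 0.196 in DHT and 4.39 ± 0.401 in vehicle libraries, and its ranges, 3.42 to 3.93 and 3.79 to 4.86, overlapped.

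**Figure D2:**
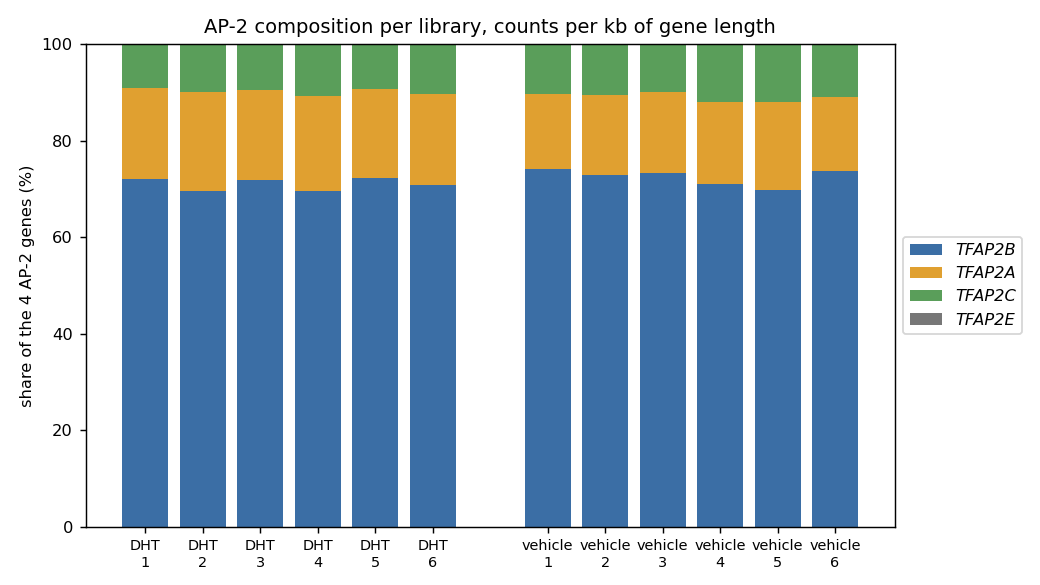
Share of each AP-2 gene in the sum of the 4 genes, in percent, per library (6 DHT libraries left, 6 vehicle libraries right), from counts per kilobase of the gene length in the count table. TFAP2B holds 69.6% to 72.3% in DHT and 69.7% to 74.2% in vehicle libraries, and the TFAP2E segment is too thin to see.

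TFAP4 (ENSG00000090447, chromosome 16, 4257186 to 4273075, minus strand) rose and was the 1 gene of the 7 tested that passed, where 1.96% of all tested genes were raised, 0.88% lowered and 2.84% changed in either direction. It encodes a helix-loop-helix factor that binds the E-box CAGCTG and is known for a role in proliferation. Its levels were 23.5, 27.0 and 28.6 CPM (lowest, median and highest) in DHT libraries and 11.8, 16.8 and 18.7 CPM in vehicle libraries. Every DHT library lay above every vehicle library, as for 2.28% of all tested genes (0.991% had every DHT library below, 3.27% either), and the lowest vehicle library was replicate 2. The means were 26.6 ± 2.17 CPM in DHT and 16.2 ± 2.35 CPM in vehicle libraries (SD, n = 6 each), a log2 fold change of 0.71 (SE 0.12, 95% interval 0.45 to 0.97, adjusted p = 0.00486 in edgeR's test), or 1.64-fold. It passed under all 21 alternatives, with log2 fold changes between 0.63 and 0.76 and adjusted p between 9.47e-07 and 0.0266. In the authors' deposited table its log2 fold change is 0.72, with an adjusted p of 0.0113.

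**Figure D3:**
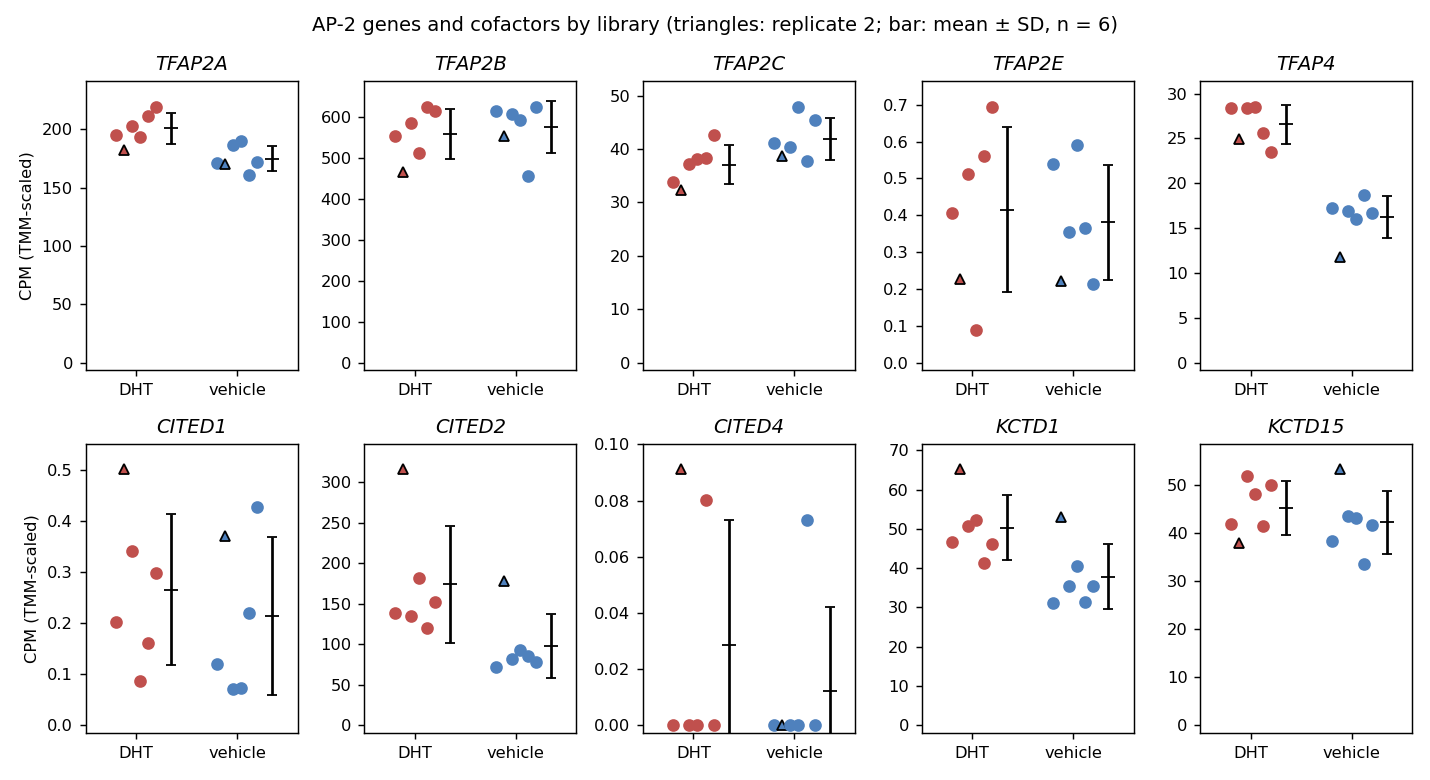
TMM-scaled CPM of each gene in the 6 DHT (left of each panel) and 6 vehicle libraries, with triangles for replicate 2 and bars for the mean ± SD; each panel has its own linear axis. TFAP4 is the 1 tested gene whose groups are separate, and CITED2 and KCTD1 have their highest library at replicate 2 in both groups.

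CITED2 (ENSG00000164442, chromosome 6, 139371807 to 139374648, minus strand) encodes the coactivator that bridges AP-2 to p300 and CBP and that competes with the hypoxia factor HIF-1α for the same domain of p300. It held nearly all CITED counts, 16462 over the DHT and 7547 over the vehicle libraries. Its levels were 119.8, 145.5 and 316 CPM (lowest, median and highest) in DHT libraries and 71.7, 83.5 and 178 CPM in vehicle libraries. The highest library of each group was replicate 2, at 2.17 times the mean of the other 5 DHT libraries and 2.16 times that of the other 5 vehicle libraries, and through vehicle replicate 2 the groups overlapped. Over all libraries CITED2 averaged 174 ± 72.7 CPM in DHT and 98.0 ± 39.6 CPM in vehicle libraries, with a log2 fold change of 0.83 (SE 0.27, 95% interval 0.25 to 1.40) that did not pass (unadjusted p = 0.00814, adjusted p = 0.158 in edgeR's test).

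Without both replicate 2 libraries, CITED2 stood at 145 ± 23.4 CPM in DHT and 82.1 ± 7.95 CPM in vehicle libraries (SD, n = 5 each), with every DHT library above every vehicle library. Its log2 fold change was then 0.82, against 0.83 with them, and its adjusted p 0.000875 in edgeR's test, in a fit that called 5.59% of all tested genes. It also passed without vehicle replicate 2 alone (log2 fold change 1.08, adjusted p = 0.0138) and with library totals as the only scaling (0.89, adjusted p = 0.0310), and it did not pass in DESeq2, which called 4.85% of all tested genes (adjusted p = 0.0576), or in limma-voom, which called 2.8% (adjusted p = 0.133). In the authors' deposited table CITED2 has a log2 fold change of 0.76 and an adjusted p of 0.000939.

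The 250 bases before the first annotated start of CITED2 (chr6:139374649-139374898, minus strand, RefSeq on GRCh38.p14) are shown because they hold an AP-2 type motif, beside the bases before the same kind of start in TFAP2A (chr6:10419660-10419909, minus strand) and TFAP2B (chr6:50818621-50818722, plus strand, cut to the 102 bases outside the gene as the count table draws it). Capitals mark matches to GCCNNNGGC, the AP-2 consensus, to the E-boxes CACGTG and CAGCTG, or to AGAACA, the core of a binding site of steroid receptors, on either strand.
CITED2: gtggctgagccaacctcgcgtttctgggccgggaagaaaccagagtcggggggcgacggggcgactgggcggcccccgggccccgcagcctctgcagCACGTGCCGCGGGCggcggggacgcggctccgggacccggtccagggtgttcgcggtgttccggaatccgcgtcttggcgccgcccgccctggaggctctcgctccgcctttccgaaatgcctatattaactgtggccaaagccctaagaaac
TFAP2A: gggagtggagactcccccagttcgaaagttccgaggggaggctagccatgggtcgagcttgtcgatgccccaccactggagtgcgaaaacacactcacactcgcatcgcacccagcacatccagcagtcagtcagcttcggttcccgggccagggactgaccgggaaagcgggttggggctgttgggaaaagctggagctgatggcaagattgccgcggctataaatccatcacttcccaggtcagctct
TFAP2B: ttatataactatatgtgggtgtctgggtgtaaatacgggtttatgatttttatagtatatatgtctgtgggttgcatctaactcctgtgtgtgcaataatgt

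The CITED2 window shown was 70.0% G and C, that of TFAP2A 59.6% and the 102 bases of TFAP2B 34.3%, against 40.8% over the 250 bases of TFAP2B. Windows before the other annotated starts had 71.2% in TFAP2A and 65.2% and 60.0% in CITED2. In the CITED2 window shown, the match to CACGTG began 153 bases before the start and that to GCCNNNGGC 148 bases before it, so they shared a base. Windows of 250 bases before 35116 annotated starts held GCCNNNGGC in 19.8%, CACGTG in 6.34%, CAGCTG in 14.0% and AGAACA in 12.4%. The other 2 annotated starts of CITED2 had no match in their windows, and the TFAP2A and TFAP2B windows held no match to these letters. Among the other members with a sequence, CITED4 had a match to GCCNNNGGC, KCTD1 had matches to GCCNNNGGC before 2 and to AGAACA before 2 of its 4 starts, and TFAP2E had a match to CAGCTG. These matches are letters in a window and were not measured as binding.

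CITED1 and CITED4 were near the limit of detection. CITED1 (ENSG00000125931, on chromosome X), a coactivator known in mice as a marker of hormone receptor-positive mammary cells, had 26 counts over the DHT libraries and 14 over the vehicle libraries, at 0.0876 to 0.501 CPM and 0.0707 to 0.427 CPM. CITED4 (ENSG00000179862, on chromosome 1), a further p300-binding coactivator of AP-2, had 3 counts over the DHT libraries, with 4 of the 6 at 0, and 1 over the vehicle libraries, with 5 of the 6 at 0. Both were below the low-count filter. Without it neither passed in edgeR's test (adjusted p = 0.697 for CITED1 and 0.79 for CITED4), on 40 and 4 counts in all. For scale, on plain library totals 1 count was worth 0.0389 CPM in the deepest and 0.230 CPM in the shallowest library. On the TMM-scaled totals of the CPM given here, 1 count was worth 0.214 CPM in that shallowest library, vehicle replicate 6.

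KCTD1 (ENSG00000134504, chromosome 18, 26454910 to 26657401, minus strand), a BTB-domain protein that represses AP-2α activity and is mutated in scalp-ear-nipple syndrome, had its highest libraries where CITED2 did. Its levels were 41.3, 48.6 and 65.2 CPM (lowest, median and highest) in DHT libraries and 31.2, 35.5 and 53.1 CPM in vehicle libraries, with replicate 2 the highest of both groups. It averaged 50.4 ± 8.24 CPM in DHT and 37.9 ± 8.20 CPM in vehicle libraries, with a log2 fold change of 0.41 (SE 0.15, 95% interval 0.09 to 0.73) that did not pass (adjusted p = 0.228 in edgeR's test). Without both replicate 2 libraries the groups were separate, at 47.4 ± 4.33 CPM in DHT and 34.8 ± 3.82 CPM in vehicle libraries (SD, n = 5 each), and KCTD1 passed (log2 fold change 0.45, adjusted p = 0.0197 in edgeR's test). It also passed without vehicle replicate 2 alone (0.53, adjusted p = 0.0307), while its adjusted p in DESeq2 was 0.15 and in limma-voom 0.212. In the authors' deposited table KCTD1 has a log2 fold change of 0.36 and an adjusted p of 0.280. A gene model inside its introns on the same strand, ENSG00000277534, held 1111 counts over the DHT and 696 over the vehicle libraries, against 4588 and 2884 for KCTD1, with no exon base in common. Its part in the KCTD1 counts was not tested.

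KCTD15 (ENSG00000153885, chromosome 19, 33795933 to 33815763, plus strand), known in zebrafish embryos for limiting neural crest formation through AP-2, showed no such pattern. Its levels were 37.8, 45.0 and 51.8 CPM (lowest, median and highest) in DHT libraries and 33.4, 42.4 and 53.2 CPM in vehicle libraries, with replicate 2 the lowest DHT and the highest vehicle library. Its log2 fold change was 0.10 (95% interval -0.17 to 0.36, adjusted p = 0.897 in edgeR's test), and 0.22 with an adjusted p of 0.276 without both replicate 2 libraries.

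**Figure D4:**
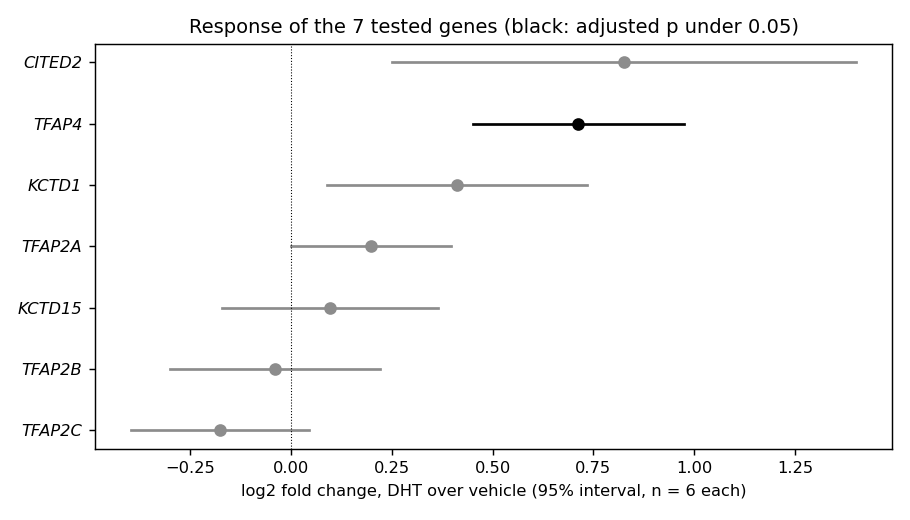
Log2 fold changes, DHT over vehicle, of the 7 tested genes with 95% intervals from edgeR's fit (n = 6 each); black marks an adjusted p under 0.05. TFAP4 passes at 0.71, CITED2 has the largest estimate, 0.83, and the widest interval, and the interval of TFAP2B runs from -0.30 to 0.22.

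Of the 10 genes, 3 were below the low-count filter, 1 was raised and 6 did not pass. TFAP2A, TFAP4, CITED2 and KCTD1 were higher in the DHT library than in the same-numbered vehicle library at all 6 replicate numbers, as were 8.78% of all tested genes, and TFAP2B and TFAP2C at 1 of 6. The labels do not tie equal numbers to a shared passage, so these counts are a description and no paired test. Without both replicate 2 libraries 3 of the 7 tested genes passed, TFAP4, CITED2 and KCTD1, against 5.59% of all tested genes. Every DHT library then lay above every vehicle library for these 3 genes and TFAP2A, as for 5.36% of all tested genes. TFAP2A still did not pass there, with an adjusted p of 0.163 in edgeR's test.

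**Figure D5:**
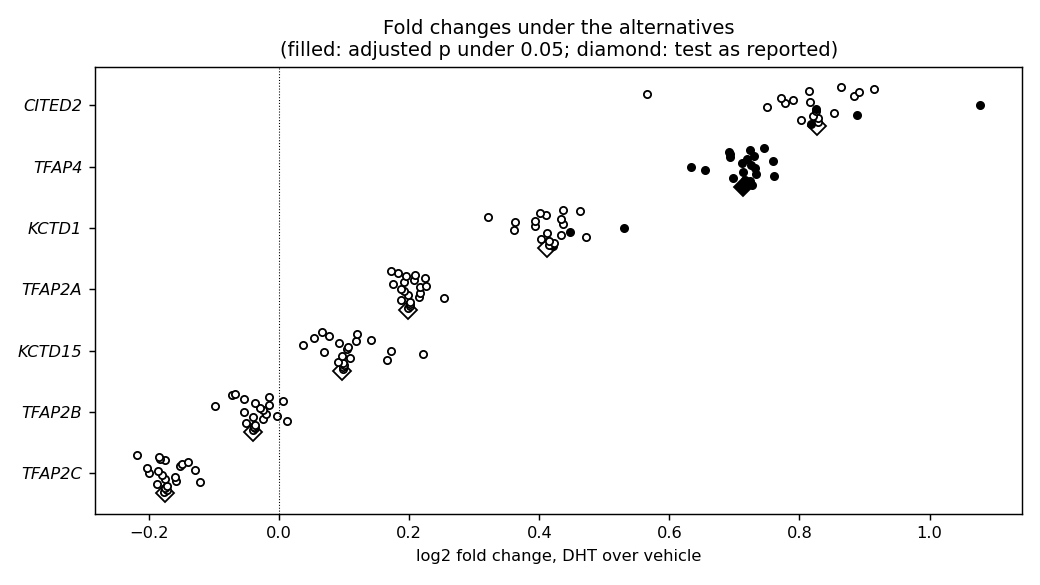
Log2 fold changes, DHT over vehicle, of the 7 tested genes in the test as reported (diamonds) and under 21 alternatives (circles), filled where the adjusted p was under 0.05. TFAP4 is filled throughout, CITED2 under 4 and KCTD1 under 3 alternatives, and the 3 AP-2 genes under none.

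A list of 19 genes held those whose proteins bind or modify AP-2 or CITED proteins, and HIF1A, whose product competes with CITED2. All 19 were tested and 2 passed, both raised, where 1.96% of all tested genes were raised. The median log2 fold change was 0.04 over the list against -0.05 over all tested genes. MYC, a growth-promoting factor reported to bind AP-2α, stood at 138 ± 24.3 CPM in DHT and 38.4 ± 10.7 CPM in vehicle libraries (log2 fold change 1.85, adjusted p = 8.42e-05 in edgeR's test). HIF1A, the gene of the hypoxia factor that competes with CITED2, stood at 137 ± 10.1 CPM in DHT and 89.5 ± 14.5 CPM in vehicle libraries (0.62, adjusted p = 0.0116 in edgeR's test). The 2 acetyltransferases that CITED2 recruits, whose genes were named after their values were seen, did not pass. EP300 was at 219 ± 33.2 CPM in DHT and 185 ± 46.8 CPM in vehicle libraries, and CREBBP at 114 ± 12.1 CPM and 129.5 ± 26.6 CPM in the same order.

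Of 23 genes reported as AP-2 targets in other systems, 17 were tested and 1 passed, lowered, where 0.88% of all tested genes were lowered, with a median log2 fold change of -0.20 against -0.05 over all tested genes. The lowered gene was CDKN1A, the cell cycle inhibitor p21, at 17.4 ± 4.06 CPM in DHT and 31.5 ± 7.95 CPM in vehicle libraries (log2 fold change -0.86, adjusted p = 0.0265 in edgeR's test). Over the list, 5 genes were lower and 1 higher at an unadjusted p under 0.05, against 884 lower and 1077 higher of all 16355 tested genes. CDKN1A depended on single libraries: no gene of the list passed without vehicle replicate 1, nor without any 1 of DHT replicates 3, 4 and 6. ERBB2, a receptor gene amplified in many breast tumours, was at 724 ± 166 CPM in DHT and 1263 ± 446 CPM in vehicle libraries and did not pass (adjusted p = 0.0649 in edgeR's test). ERBB3 had a log2 fold change of -0.20 (95% interval -0.50 to 0.11) and the adhesion gene CDH1 one of -0.10 (-0.59 to 0.38), and neither passed.

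Of the 22 other genes of the KCTD family, 16 were tested and 0 passed in edgeR, with 4 higher and 0 lower at an unadjusted p under 0.05, 1 passing in DESeq2 and 0 in limma-voom. Of all 16355 tested genes 1077 were higher and 884 lower at that level. Their median log2 fold change was -0.08.

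Among 10236 other genes with a mean of at least 10 CPM, the 5 whose log2 CPM followed that of TFAP2B most closely over the 12 libraries were EHD3, an endosomal trafficking gene (Pearson's r = 0.949), ERCC6, a DNA repair gene (0.946), KIAA0753, a centriolar gene (0.946), RABGAP1 (0.939) and PIK3R4, a subunit of the class III phosphoinositide kinase (0.938). Without both replicate 2 libraries these r were between 0.918 and 0.960, and KIAA0753 alone stayed among the 5 highest (rank 3, the others 21 to 55). All genes of a library share its depth and culture, so r is given as a description of likeness. The log2 fold changes of these 5 genes lay between -0.05 and 0.01 and none passed in edgeR's test.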

How the data were processed

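Per the submitters' processing notes, STAR and featureCounts were used with GRCh38, whose versions and options the sources used here do not give. The authors deposited estimated counts per gene: in each library 39.6% to 46.7% of the values above 0 were fractions (tolerance 0.005). They were rounded before testing, a change from the raw counts that had been planned for. Reads were single, of 40 bases. The design text speaks of poly-A RNA while the protocol names a total RNA kit, and nothing used here says whether counting used strand. A record of 1 gene broken over 3 lines was left out. The authors also deposited a table of log2 fold changes, p-values, transcript lengths and GC percent for 14559 genes, per the file headers, which holds 7 of the 10 genes; nothing used here names its model.

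Tests used edgeR 4.0.16 in R 4.3.3 (quasi-likelihood F-test) on the 16355 genes that filterByExpr kept, with TMM scaling, group as the only term and a threshold of 0.05 on the Benjamini-Hochberg adjusted p. It was first run on simulated counts with known changes. SE was taken as the fold change (log2) divided by the root of the F statistic. CPM are counts over TMM-scaled totals, and levels per length use plain totals. The labels do not tie equal replicate numbers to a shared passage, and p-values measure the spread between these cultures of 1 line. The alternatives were DESeq2 1.42.0, limma-voom (limma 3.58.1), 3 other scalings, 2 other filters, the replicate number as a block, each library left out and both replicate 2 libraries left out. Sequences are RefSeq's, with entries for 7 of the 10 genes.

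The 10 genes and the lists were chosen with earlier results of these data known. The lists held partners of AP-2 and CITED with the competitor HIF1A, reported AP-2 targets and other KCTD genes. Marker lists covered the line and basal, fibroblast, leukocyte and endothelial cells. Named were all 10 genes, up to 4 passing genes per list, ERBB2, ERBB3, CDH1, FKBP5 and the 5 genes most like TFAP2B. EP300, CREBBP, TFAP2D, COL1A1, CD3E and the markers KRT8, KRT18, EPCAM and ESR1 were named outside this rule, after their values were seen. Results for 2 genes of the marker lists are not reported here.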

Additional observations from a re-analysis of the deposited data

Results flagged for a closer look

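In both groups the highest CITED2 library stood far from the other 5, with a gap to the next library that took up most of the group's whole range. It was replicate 2 each time, at 316 CPM in the DHT libraries and 178 CPM in the vehicle libraries. Over the 7 tested genes 14 groups of 6 libraries were examined in this way and 2 stood out, where chance flags about 1 in 20 groups. The genes share the same libraries, so the 14 groups are not independent and their count cannot be judged by that rate.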

How the results depend on the processing

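The 464 genes called over the whole table became 793 in DESeq2, 920 without both replicate 2 libraries, 1286 with the replicate block and 278 to 619 with each library left out in turn. Of the 10 genes 1 passed as reported, 3 with the replicate block, 3 without both replicate 2 libraries, 2 with library totals as the only scaling and 1 to 3 with each library left out. The block lowered the adjusted p of CITED2 to 0.000381 and of KCTD1 to 0.0081. Equal numbers were not taken as pairs, since deviations from the group means correlated at -0.238 for replicate 5 and at 0.259 to 0.875 for the others. Of the DHT libraries 3 of 6 correlated best with their own number, replicates 1, 2 and 4, and of the vehicle libraries replicates 2, 3 and 6 did. The partner list gave 1 call with library totals only and 2 in each fit with a library left out. The reported targets gave 8 with the block, 3 in DESeq2, 2 with upper quartile scaling, library totals only or without both replicate 2 libraries, and 0 to 2 with each library left out. The other KCTD genes gave 2 with the block, 1 in DESeq2 and 0 to 1 with each library left out. The TFAP2B share of AP-2 RNA moved to 58.6% in DHT and 61.6% in vehicle libraries with the authors' transcript lengths, and lay at 70.7% to 71.3% and 72.1% to 72.97% with each library left out. The log2 fold change of TFAP2B turned to 0.012 with library totals only and to 0.0062 without DHT replicate 2, within a range of -0.099 to 0.0062 with each library left out, and the cause was not tested. Where CITED2 and KCTD1 passed, the cause was not tested. TFAP2A, TFAP2C and KCTD15 kept their direction and did not pass under all 21 alternatives. TFAP2E, CITED1 and CITED4 had too few counts for the main test, were tested only without the low-count filter and did not pass there.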
